A study of Sus scrofa with 23 samples.

Results

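Dendritic cells take up material in a tissue and present it to T cells, and 9 genes commonly used to mark them were followed here through 5 groups of pig coronary artery segments. Genes were taken by name from 6 tables of 35228 gene names. A row of that name was present for 7 of the 9: XCR1, FLT3, BATF3, CADM1, CD83, LAMP3 and CD209. CLEC9A had no row of its own name, but the row LOC100623379 carries the identifier that RefSeq gives to pig CLEC9A on Sscrofa11.1, and its values are given beside the 7 and are not counted with them. ZBTB46, a transcription factor of classical dendritic cells, was not analysed here.

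The segments, each 3 mm long, came from Yorkshire swine, a farm breed of pig, all with raised cholesterol and some with diabetes as well, and had been graded mild, moderate or severe by histopathology. Poly-A selected RNA gave 23 libraries, in 5 groups: mild (4), moderate (4) and severe (5) segments without diabetes, then moderate (6) and severe (4) segments with diabetes. No mild diabetic segment and no animal with normal cholesterol was part of the design as labelled. Neither the age of the animals nor the way diabetes was produced is stated in the labels. Nor do they say which animal a segment came from: p-values therefore measure the spread between segments, and are too small where a group holds several segments of 1 animal. For 1 library the labels conflict: severe non-diabetic replicate 5 is called moderate and diabetic in its characteristics, and the standard errors of the tables imply 5.01 libraries in its titled group.

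Classical dendritic cells are commonly divided into a cDC1 branch, which takes up dead cells and presents their antigens to CD8 T cells, and a cDC2 branch, which mainly addresses CD4 T cells. The growth factor receptor FLT3 sustains both, the transcription factor BATF3 is needed for cDC1 development in mice, and CLEC9A, which binds actin exposed by dead cells, and XCR1, the receptor of the chemokine XCL1, are the classic cDC1 surface markers. CADM1, an adhesion molecule, is carried by cDC1 but also by many other cells, including nerve and epithelium. CD83 and LAMP3 rise when dendritic cells mature, and CD83 also appears on activated lymphocytes and macrophages. CD209, the lectin DC-SIGN, is found on dendritic cells grown from monocytes and on tissue macrophages in humans.

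The values below are the authors' group means in normalized counts, that is, reads per gene divided by a size factor for each library, and no value of a single library was used here. Library totals, in counts assigned to genes, were about 6720000 to 15000000. They were estimated from the most frequent low group means, each taken as a single read in a single library. Smooth muscle transcripts were abundant in every group, as a coronary wall would have them, with ACTA2 between 33189.7 and 42031.7 normalized counts. Heart muscle transcripts varied between groups: 11 markers together made up 1.09% of all counts in mild, 0.314% in moderate and 0.284% in severe segments, and 0.0221% and 0.0329% in moderate and severe diabetic segments. Whether this difference in what the segments contained has a part in the results below was not tested. In whole segments, fewer cells of a type and less RNA per cell cannot be told apart.

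By the ratio of its highest to its lowest mean, XCR1 had the widest range of the 8 rows. Its mean was 88.1 normalized counts in mild, 229 in moderate and 185 in severe segments without diabetes, and 515 in moderate and 444 in severe segments with diabetes. Both diabetic groups were above all 3 groups without diabetes, and mild segments were lowest. The modelled spread between libraries of a group, beyond counting error, was 22.9% of the mean for XCR1, against a median of 19.6% over the 12194 genes whose mean reached 50 in all 5 groups.

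XCR1 lies on chromosome 13 at 29150376 to 29233802 in the RefSeq gene table of Sscrofa11.1, and 6585 bases of that span are shared with CCR1, at 29227218 to 29233862. CCR1 encodes a chemokine receptor of monocytes and macrophages, and of the 8 rows described here XCR1 alone has a span that overlaps another gene of that table. CCR1 averaged 71.5, 540 and 646 normalized counts in mild, moderate and severe segments without diabetes and 1463 and 1499 in moderate and severe segments with diabetes. It was therefore lowest in mild and highest in diabetic segments, as XCR1 was. From moderate to severe segments, CCR1 means rose and XCR1 means fell by size, without and with diabetes, though none of these differences passed the threshold used below. How reads in shared sequence were counted, and whether strand was used, is not given in the sources used here, so the XCR1 values may contain reads of CCR1 and are uncertain in every comparison below.

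CLEC9A and BATF3, the other classic cDC1 genes, and the shared receptor FLT3 were read much less often and had narrower ranges across the groups. CLEC9A, on chromosome 5 at 61876050 to 61885307, averaged 16.0, 18.7 and 13.1 normalized counts in mild, moderate and severe segments, and 13.8 and 10.8 in moderate and severe diabetic segments. Its highest mean was in moderate non-diabetic segments and its lowest in severe diabetic segments, where XCR1 stood at 444. BATF3, on chromosome 9 at 130699092 to 130711719, averaged 23.6, 20.2 and 18.5 without diabetes and 32.8 and 22.2 with diabetes. FLT3, on chromosome 11 at 5370475 to 5455439, averaged 24.6, 42.3 and 35.4 without diabetes and 57.6 and 41.3 with diabetes. For BATF3 and FLT3 the moderate diabetic segments were highest and the severe diabetic segments lay within the range of the groups without diabetes. The modelled spread between libraries was 37.8% for CLEC9A, 37.3% for BATF3 and 45.4% for FLT3, so these genes were measured less precisely than XCR1.

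**Figure D1:**
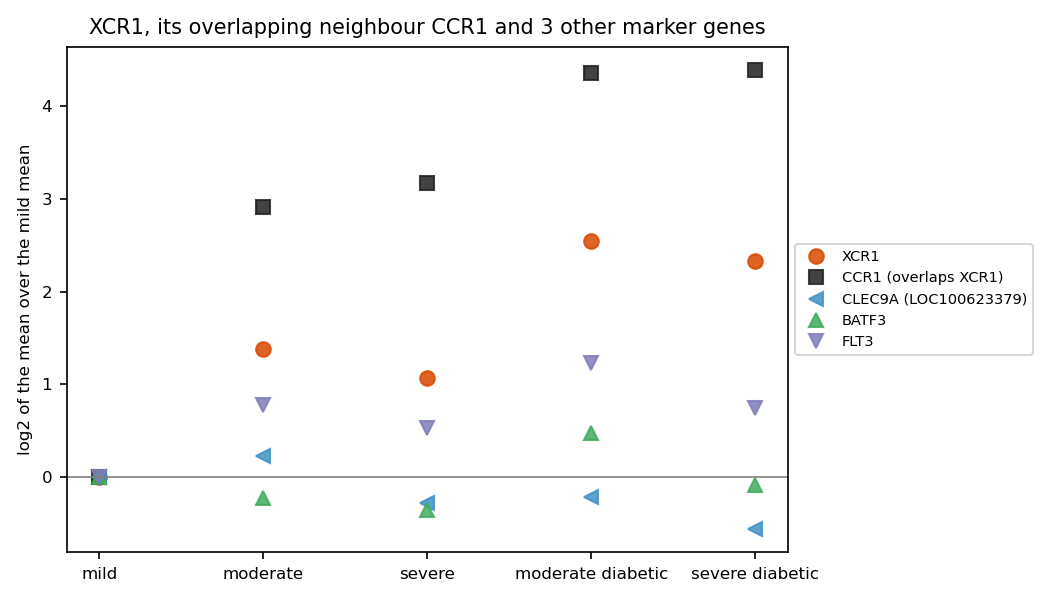
Mean normalized count of XCR1, CCR1, CLEC9A, BATF3 and FLT3 in each of the 5 groups, as the log2 of its ratio to the mild mean, with no error drawn. XCR1, CCR1 and FLT3 all lie above mild in the 4 other groups, CCR1 furthest, while CLEC9A and BATF3 lie on either side of 0.

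CADM1, on chromosome 9 at 42644487 to 42984934, averaged 1155 normalized counts in mild, 1643 in moderate and 2184 in severe segments, and 2550.0 and 2354 in moderate and severe diabetic segments. Its means followed the grading without diabetes and were close together in the 3 highest groups. The maturation marker CD83, on chromosome 7 at 10346122 to 10385968, averaged 299, 569 and 563 without diabetes and 1060.0 and 971 with diabetes. CD83 thus fell into 3 levels: mild, lesions without diabetes, and lesions with diabetes. LAMP3, the other maturation marker, on chromosome 13 at 121081717 to 121117660, was rare, with 3.804, 6.54 and 4.45 normalized counts without diabetes and 11.9 and 5.36 with diabetes. At such levels the counting error alone was 51.3% of the mean per library in mild segments, and the modelled spread beyond it was 52.7%.

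CD209, on chromosome 2 at 71394414 to 71397711, ran the other way. It averaged 728 normalized counts in mild, 254 in moderate and 335 in severe segments without diabetes, and 234 and 343 in moderate and severe diabetic segments. Mild segments were highest, and the 4 other groups lay between 234 and 343. CD209 also had the widest modelled spread between libraries of the 8 rows, 57.1% of the mean.

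**Figure D2:**
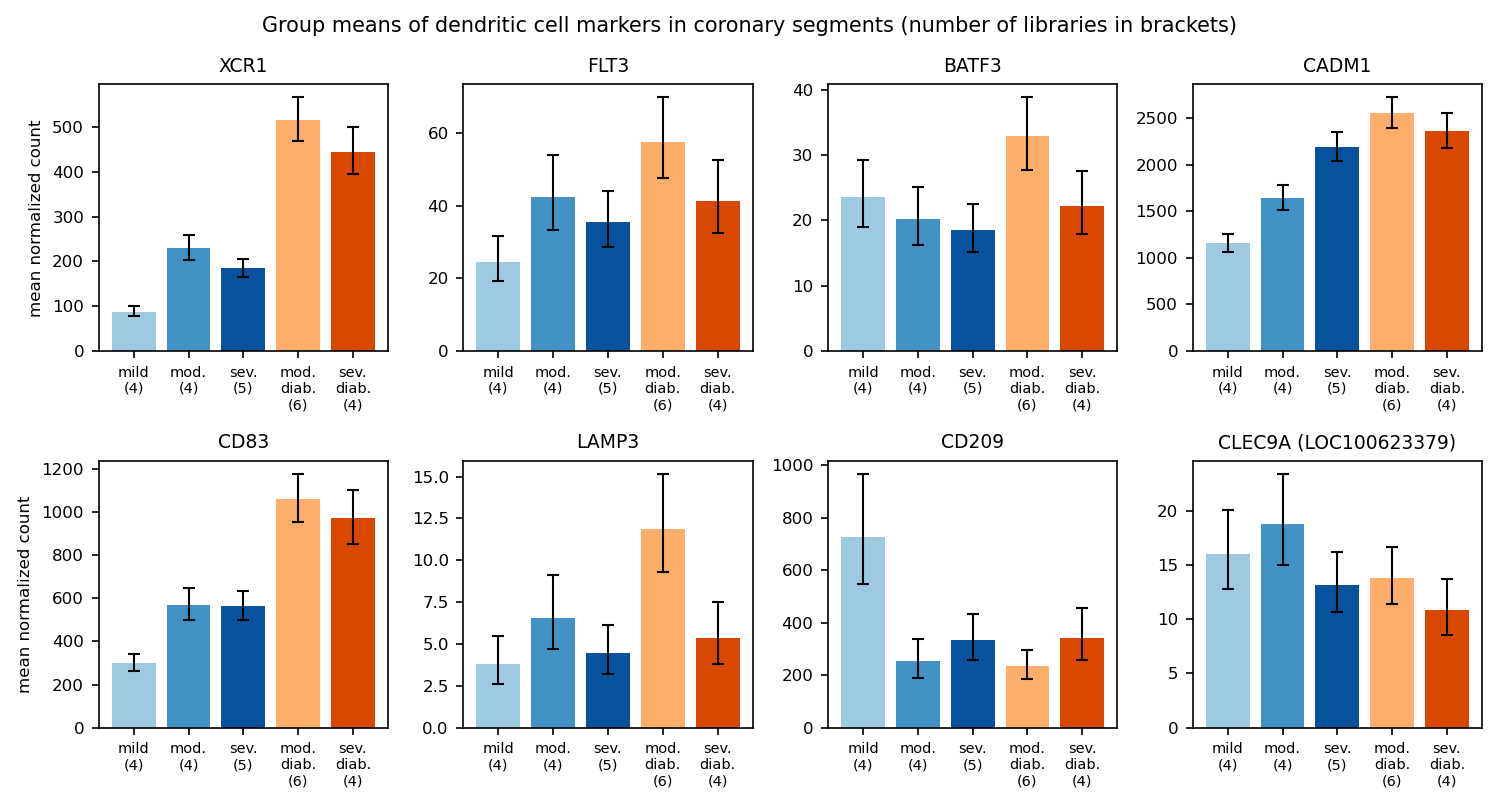
Mean normalized count (vertical axis, from 0, its own scale in each panel) of 8 marker rows in mild, moderate and severe segments without diabetes (blue) and moderate and severe segments with diabetes (orange). Bars are the authors' means, and lines show 1 standard error, computed on the log2 scale from the tables' standard errors; XCR1 spans 88.1 to 515, and CD209 is highest in mild segments at 728.

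The first comparison asked what differed between lesions and mild segments in animals without diabetes. XCR1, CD83 and CADM1 were higher in moderate than in mild segments, 2.59-, 1.90- and 1.42-fold. CD209 was lower by size, 0.349-fold, but had an adjusted p of 0.125 in the authors' deposited table. An adjusted p under 0.05 by DESeq2, as the authors' deposited table gives it, counts as past the threshold. By that rule 3 of the 7 markers were higher and 0 lower, where 3.56% of 18561 genes tested were higher and 1.08% lower.

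In the authors' deposited table for moderate over mild segments, XCR1 had a log2 fold change of 1.37 ± 0.25 (standard error), adjusted p = 6.75e-06. CCR1, which overlaps it, had 2.93 ± 0.39, adjusted p = 2.92e-11, in the same authors' deposited table. The authors' deposited table gives CD83 0.93 ± 0.27, adjusted p = 0.0175, and CADM1 0.51 ± 0.16, adjusted p = 0.0445. CADM1 had an adjusted p of 0.0718 when every gene with a p was adjusted together. FLT3 and LAMP3, at 0.78 ± 0.50 and 0.81 ± 0.71, did not pass the threshold in the authors' deposited table (adjusted p of 0.483 and 0.679). The 95% interval of the CLEC9A fold from the authors' deposited table ran from 0.643 to 2.25, which covers falls and rises alike, and that of BATF3 from 0.463 to 1.54. CD209 stood at -1.52 ± 0.59 in the authors' deposited table, with a 95% interval of the fold of 0.157 to 0.772 before adjustment.

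Severe segments against the same mild segments gave 3 higher and 0 lower markers, where 7.19% of 20294 genes tested were higher and 4.80% lower. They were CADM1 at 0.92 ± 0.16 (adjusted p = 2.52e-07), XCR1 at 1.07 ± 0.24 (adjusted p = 0.000245) and CD83 at 0.92 ± 0.25 (adjusted p = 0.00534), from the authors' deposited table. CCR1 had a log2 fold change of 3.19 ± 0.37 (adjusted p = 2.36e-15), from the authors' deposited table. CD209 was lower by size, -1.12 ± 0.55, with an adjusted p of 0.190 in the authors' deposited table. FLT3, BATF3, LAMP3 and CLEC9A lay between -0.33 and 0.52 with adjusted p of 0.560 or more in the authors' deposited table. Both comparisons use the 4 mild libraries, so they are not independent.

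Between severe and moderate segments without diabetes 0 of the 7 markers passed the threshold in either direction by DESeq2, where 0.0203% of 19716 genes did. CADM1 came nearest, 0.41 ± 0.15, with an unadjusted p of 0.00801 and an adjusted p of 0.827 in the authors' deposited table, and it was the only marker with an unadjusted p under 0.05. The severe over moderate fold of XCR1 had a 95% interval of 0.592 to 1.11, and CD83 had a log2 fold change of -0.01 ± 0.25, from the authors' deposited table. These values do not show that the grades were alike.

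The next comparisons asked what differed with diabetes at the same grade. XCR1 and CD83 were higher with diabetes in moderate segments, 2.25- and 1.87-fold, and in severe segments, 2.39- and 1.72-fold. CADM1 was higher with diabetes in moderate segments, 1.55-fold, and had a fold of 1.08 in severe segments. CLEC9A had folds of 0.725 and 0.845, on the other side of 1 from XCR1, neither past the threshold. CCR1 was higher with diabetes at both grades.

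In moderate segments 3 of the 7 markers were higher with diabetes and 0 lower, where 8.20% of 22025 genes tested were higher and 8.46% lower. XCR1 stood at 1.17 ± 0.22 (adjusted p = 9.18e-06), CADM1 at 0.63 ± 0.15 (adjusted p = 0.000534) and CD83 at 0.90 ± 0.24 (adjusted p = 0.00311), from the authors' deposited table. CCR1 stood at 1.44 ± 0.35 (adjusted p = 0.000759) there, also from the authors' deposited table. The 95% interval of the fold was 1.67 to 3.03 for XCR1 and 0.409 to 1.28 for CLEC9A, from the authors' deposited table, and these intervals do not overlap. Whether the genes differ from each other was not tested, since the tables do not show how they vary together within libraries. BATF3, at 0.73 ± 0.40, had an unadjusted p of 0.0684 and an adjusted p of 0.218 in the authors' deposited table. CD209 hardly moved by size, -0.12 ± 0.54, but its 95% interval of the fold in the authors' deposited table ran from 0.446 to 1.91.

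In severe segments 2 of the 7 markers were higher and 0 lower with diabetes, where 5.75% of 20869 genes tested were higher and 4.92% lower. They were XCR1 at 1.26 ± 0.23 (adjusted p = 9.43e-06) and CD83 at 0.78 ± 0.25 (adjusted p = 0.0256), from the authors' deposited table. CCR1 had a log2 fold change of 1.22 ± 0.36 (adjusted p = 0.0137), from the authors' deposited table. The 5 other markers lay between 0.03 and 0.31, with adjusted p of 0.724 or more, in the authors' deposited table. CLEC9A stood at -0.24 ± 0.46 in the authors' deposited table, with a 95% interval of the fold of 0.453 to 1.57. Severe diabetic over moderate diabetic segments gave 0 of 7 markers past the threshold by DESeq2, 0 at an unadjusted p under 0.05, and 0.00332% of 30151 genes. There LAMP3 had the largest difference by size, -1.11 ± 0.60, unadjusted p = 0.0653, in the authors' deposited table.

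**Figure D3:**
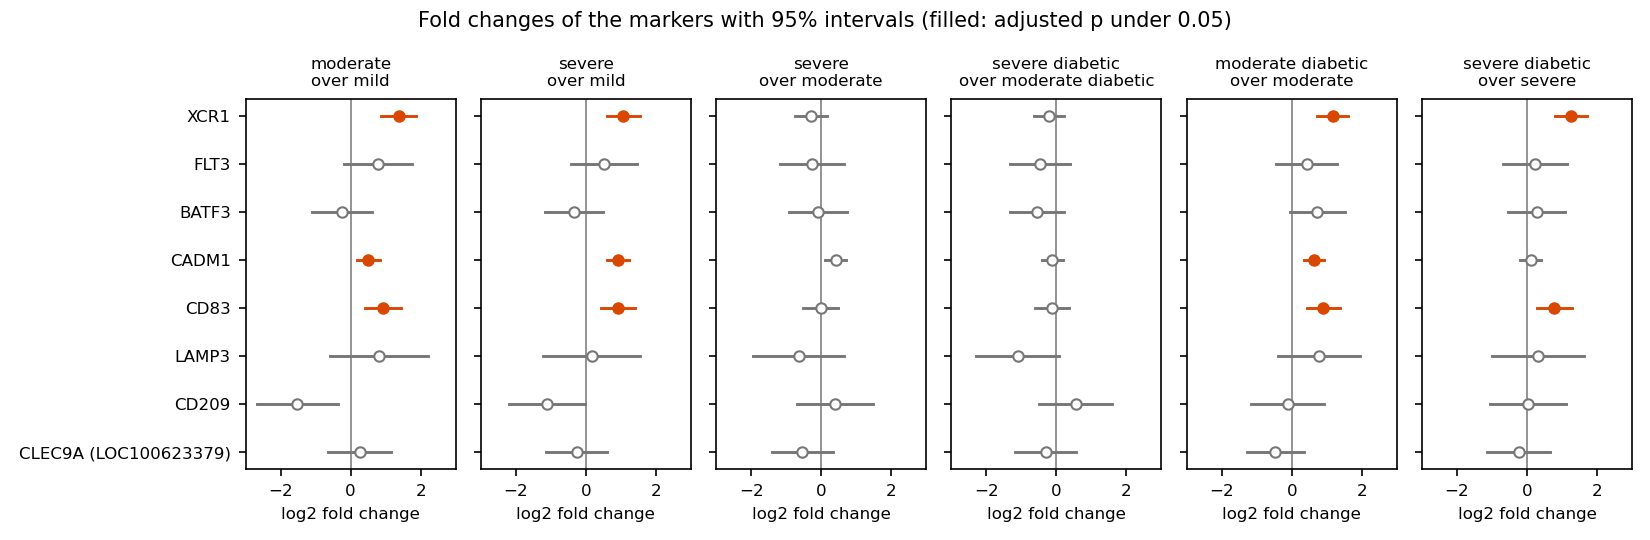
Log2 fold change (horizontal axis) of 8 marker rows in the 6 deposited comparisons, with 95% intervals from the authors' standard errors; filled points have an adjusted p under 0.05. XCR1 and CD83 are filled in 4 panels, both comparisons with mild segments and both comparisons with diabetes, and CADM1 in 3.

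The effect of diabetes at the 2 grades was then compared directly, as the severe minus the moderate difference, with a two-sided Wald test computed here and adjusted over the 17493 genes whose mean reached 10. None of the 6 markers with an adjusted p passed, where 0.0114% of genes did. For XCR1 the difference of the 2 log2 fold changes was 0.09 ± 0.32 (adjusted p = 0.999 by the Wald test across all genes). For CADM1, called in moderate and not in severe segments, the difference was -0.53 ± 0.21, with an unadjusted p of 0.0143 in that Wald test and an adjusted p of 0.999. CADM1 was the only marker with an unadjusted p under 0.05 here, and its effects at the 2 grades are not shown to differ after adjustment.

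The 5 means of a marker can also be put in order, with a test between neighbours from the deposited tables or, for the 4 pairs of groups without a table, from the same Wald test. For XCR1 the order was mild, severe, moderate, severe diabetic and moderate diabetic. Mild and severe segments differed, and so did moderate and severe diabetic segments (0.96 ± 0.24, adjusted p = 0.00231 by the Wald test across all genes), while the other neighbours did not differ beyond their spread. The order of CD83 was the same as that of XCR1, with steps past the threshold at the same places. Its upper step was 0.77 ± 0.27 (adjusted p = 0.0332 by the Wald test across all genes, and 0.0542 when every gene with a p was adjusted together). For CADM1 only the step from mild to moderate segments passed the threshold. Over all markers, severe diabetic over moderate segments gave 3 of 6 higher and 0 lower, where 7.01% of genes were higher and 5.95% lower, and moderate diabetic over severe segments gave 2 of 6 higher and 0 lower, where 10.1% were higher and 9.78% lower. No neighbours differed beyond their spread for FLT3, BATF3, LAMP3, CD209 or CLEC9A.

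Against mild segments, the moderate diabetic group showed the most calls among the markers. Of the 6 markers given an adjusted p, 4 were higher and 1 was lower there by the Wald test computed here, where 20.4% of 17493 genes were higher and 21.4% lower. XCR1 was 5.83-fold (95% interval 4.27 to 7.95), CD83 3.55-fold (2.55 to 4.95) and CADM1 2.21-fold (1.80 to 2.70) above mild segments. FLT3 also passed at this distance, at 1.21 ± 0.45 (adjusted p = 0.0210 by the Wald test). CD209 was lower, at -1.64 ± 0.53 (adjusted p = 0.00734 by the Wald test), which is 3.11-fold lower. For severe diabetic over mild segments 3 of 6 markers were higher and 0 lower, where 17.4% of genes were higher and 16.1% lower, and CD209 stood at -1.09 ± 0.58 (adjusted p = 0.144 by the Wald test). Grade and diabetes change together in these 2 comparisons and cannot be told apart there.

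Of the ligands and growth factors that act on these cells, FLT3LG, the ligand of FLT3, was flat: 49.7, 43.8 and 53.7 normalized counts without diabetes and 45.7 and 50.4 with diabetes. Its log2 fold changes lay between -0.15 and 0.26 in the authors' deposited tables. XCL1, the ligand of XCR1, was near the limit of detection, with means of 0.235 to 2.38 normalized counts, where 3 reads over a whole group give a mean of 0.478 to 0.822. The granulocyte-macrophage growth factor CSF2 was as rare, but its receptor chains were not. In the authors' deposited table for moderate over mild segments CSF2RB stood at 1.43 ± 0.18 (adjusted p = 9.06e-13) and CSF2RA (LOC100620339) at 1.69 ± 0.29 (adjusted p = 1.67e-06).

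Transcription factors of the lineage were mixed. SPI1, the myeloid factor PU.1, was higher in moderate than in mild segments (0.79 ± 0.21, adjusted p = 0.00659) and higher with diabetes in moderate segments (0.95 ± 0.19, adjusted p = 2.08e-05), from the authors' deposited tables. IRF8, a factor of cDC1 and of monocytes, read from the numbered copy IRF8_2, was higher in moderate than in mild segments (0.99 ± 0.29, adjusted p = 0.0178) and stood at 0.15 ± 0.24 with diabetes in moderate and -0.24 ± 0.25 in severe segments (adjusted p of 0.742 and 0.603), from the authors' deposited tables. ID2, needed for cDC1 in mice, was higher with diabetes in severe segments (1.22 ± 0.31, adjusted p = 0.00284) and just missed the threshold in moderate segments (0.78 ± 0.30, adjusted p = 0.0501), from the authors' deposited tables. NFIL3, which cDC1 also need in mice, was higher with diabetes at both grades, 1.75 ± 0.21 and 1.73 ± 0.22, adjusted p of 1.59e-11 or less in the authors' deposited tables. Of the 14 genes matched on this list beside the markers, 4 were higher and 0 lower in moderate over mild segments, 4 higher and 0 lower in severe over mild segments, 8 higher and 0 lower with diabetes in moderate segments, and 3 higher and 0 lower with diabetes in severe segments. Of the 14, 12 had an adjusted p in each of these comparisons. Over all genes tested, 3.56%, 7.19%, 8.20% and 5.75% were higher in these comparisons, in that order. IRF4, the cDC2 factor, and XCL2 were not matched.

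The wider cDC1 list held 8 other matched genes, 6 of them with a mean of at least 10. An adjusted p was given for 6 of the 8 in moderate over mild segments and for 8 with diabetes in moderate segments. In moderate over mild segments 3 were higher and 0 lower, with a median log2 fold change of 0.51 among the 6, against 0.00 over all genes with such a mean. They were RAB7B (LOC100627693), WDFY4 and IRF8_2. The authors' deposited table gives RAB7B, a lysosomal GTPase that monocytes and macrophages also express, 1.92 ± 0.30 (adjusted p = 3.25e-08) and WDFY4, needed for cross-presentation by cDC1 in mice, 0.96 ± 0.18 (adjusted p = 9.50e-06). With diabetes in moderate segments 3 were higher and 0 lower, RAB7B at 1.67 ± 0.25, thrombomodulin THBD at 0.96 ± 0.19 and WDFY4 at 0.70 ± 0.16 (adjusted p of 0.000402 or less), in the authors' deposited table. RAB7B means ran from 38.6 in mild to 494 in severe diabetic segments, and WDFY4 means from 791 in mild to 2500.2 in moderate diabetic segments. THBD means ran from 410 in severe to 905 in moderate diabetic segments. CLEC9A means were far lower, 10.8 to 18.7, and which cells gave the reads of RAB7B, WDFY4 and THBD was not tested. TLR3, also on the list, stood at 0.06 ± 0.28 in moderate over mild segments. With diabetes it stood at -0.15 ± 0.25 in moderate and -0.36 ± 0.26 in severe segments, none past the threshold in the authors' deposited tables. Of all genes tested, 3.56% were higher in moderate over mild segments and 8.20% with diabetes in moderate segments. CLEC9A and BATF3 did not pass the threshold in any of the 6 deposited comparisons.

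On the list of genes of mature dendritic cells, 19 were matched beside CD83 and LAMP3. Between 16 and 18 of these 19 had an adjusted p in the comparisons counted below. In moderate segments 10 of them were higher and 0 lower with diabetes, and the 15 with a mean of at least 10 had a median of 0.78. The authors' deposited table gives the interleukin-7 receptor IL7R, which T cells carry too, 2.84 ± 0.41 (adjusted p = 1.59e-09), the costimulator CD40 1.02 ± 0.19 (adjusted p = 6.14e-06) and CD86 0.82 ± 0.21 (adjusted p = 0.00239). Not every listed gene rose by size: FSCN1 stood at -0.17 ± 0.34 and CCL19 at -0.07 ± 0.31 there. In moderate over mild segments FSCN1 stood at -0.58 ± 0.37 and CCL19 at -0.21 ± 0.34. None of these values passed the threshold in the authors' deposited tables. CCR7, the receptor that leads mature dendritic cells and naive T cells to lymph nodes, averaged 0.916, 3.99 and 4.33 normalized counts without diabetes and 18.6 and 7.07 with diabetes. It was higher with diabetes in moderate segments, 2.21 ± 0.60 (adjusted p = 0.00333), and stood at 0.75 ± 0.62 (adjusted p = 0.494) in severe segments, in the authors' deposited tables. In severe segments 3 of the 19 were higher with diabetes and 0 lower. In moderate over mild segments 3 were higher, PDCD1LG2, CD86 and CD40, and in severe over mild segments 6. Over all genes tested, 8.20% and 5.75% were higher with diabetes in moderate and severe segments. The shares were 3.56% and 7.19% in moderate and severe over mild segments.

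Through class II presentation dendritic cells and macrophages address CD4 T cells. Of 12 genes matched on that list, 2 were higher in moderate over mild segments, 4 in severe over mild segments, 3 with diabetes in moderate and 1 with diabetes in severe segments, and 0 were lower in any of these. Of all genes tested, 3.56%, 7.19%, 8.20% and 5.75% were higher in these comparisons, in that order. The authors' deposited tables give CTSS, a protease of antigen processing, 1.93 ± 0.34 in moderate over mild segments (adjusted p = 1.67e-06) and LGMN, another, 1.61 ± 0.27 with diabetes in moderate segments (adjusted p = 4.30e-07). The class II chain SLA-DRA stood at 0.57 in moderate over mild segments and at 0.19 with diabetes, neither past the threshold in the authors' deposited tables.

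**Figure D4:**
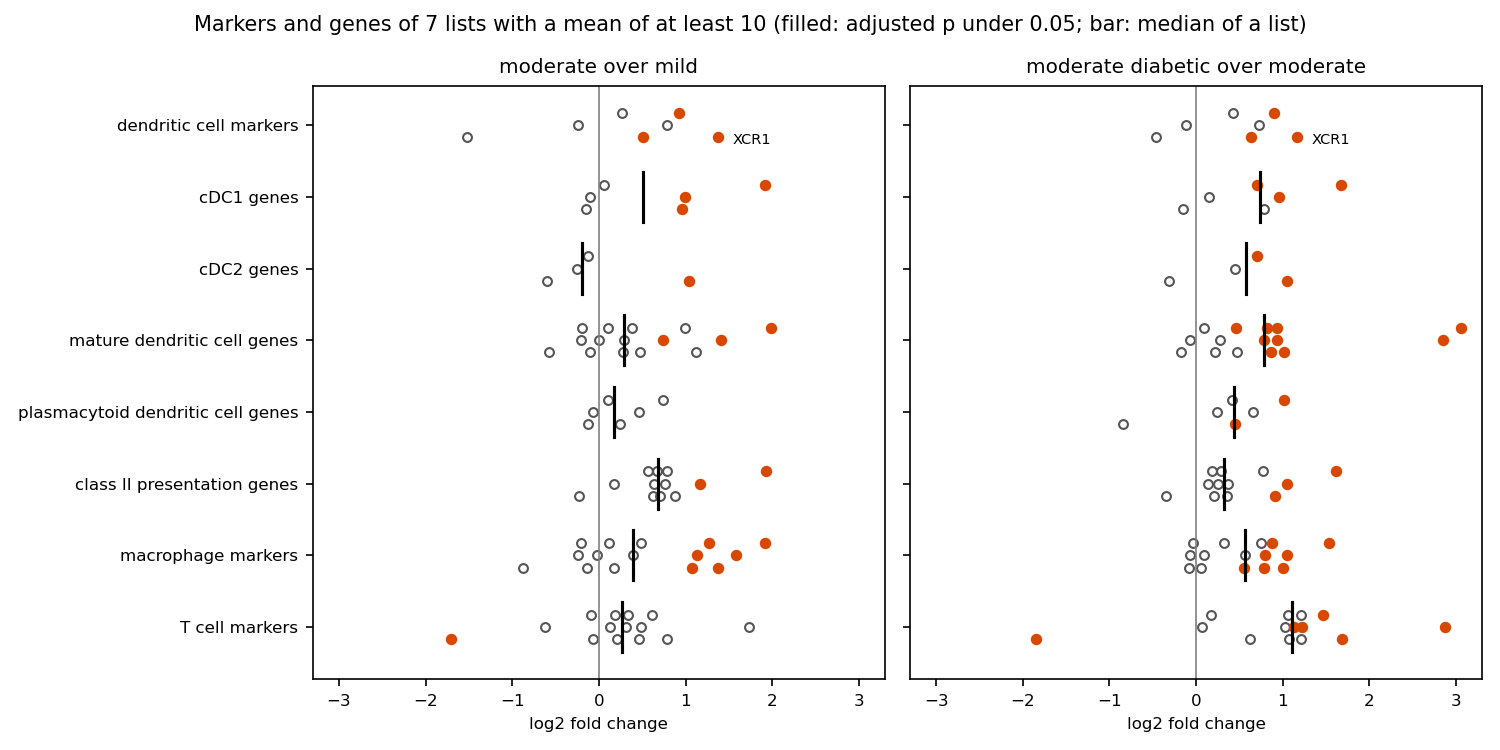
Log2 fold change (horizontal axis) of the dendritic cell markers except LAMP3 and of the genes of 7 lists without the markers, all with a mean of at least 10, in moderate over mild segments and in moderate diabetic over moderate segments. Filled points have an adjusted p under 0.05 and bars are list medians. With diabetes the median of the mature dendritic cell list is 0.78, and CCR7 is not drawn because its mean is below 10.

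Some macrophage markers were higher in the comparisons in which XCR1, CD83 or CADM1 were. Of 15 matched, 6 were higher and 0 lower in moderate over mild segments, 8 higher and 1 lower in severe over mild segments, 7 higher with diabetes in moderate and 2 in severe segments. Their summed means were 14251, 20357 and 27012 normalized counts in mild, moderate and severe segments, and 28603 and 31699 in moderate and severe diabetic segments. None of the 15 was at 0 in any group. XCR1 had a larger log2 fold change than 13 of the 15 in moderate over mild segments and than 9 in severe over mild segments. With diabetes its log2 fold change was larger than 14 of the 15 in moderate and than 15 in severe segments. Between severe and moderate segments it was larger than 1 of the 15, without and with diabetes. T cell markers also moved with diabetes: 5 of 14 were higher and 1 lower at either grade. Of 6 Schwann and nerve markers 0 were higher in the 6 deposited comparisons, while 3 were lower in severe over mild segments and 2 with diabetes at each grade. Over all genes tested, 3.56% were higher and 1.08% lower in moderate over mild segments, and 7.19% and 4.80% in severe over mild segments. With diabetes 8.20% were higher and 8.46% lower in moderate segments, and 5.75% and 4.92% in severe segments. The part of macrophages, T cells or nerve in the values of XCR1, CADM1 and CD83 was not tested.

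Set against the summed macrophage markers, CADM1 had a ratio of 0.996, 0.998, 1.10 and 0.917 times the mild ratio in moderate, severe, moderate diabetic and severe diabetic segments. The same ratio for CD83 was 1.33, 0.993, 1.76 and 1.46, and for XCR1 1.82, 1.11, 2.91 and 2.27. For CLEC9A it was 0.819, 0.434, 0.429 and 0.304, and for CD209 0.244, 0.243, 0.160 and 0.212. These are ratios of group means, with no error, and the sum is weighted towards abundant genes such as C1QC and LAPTM5.

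**Figure D5:**
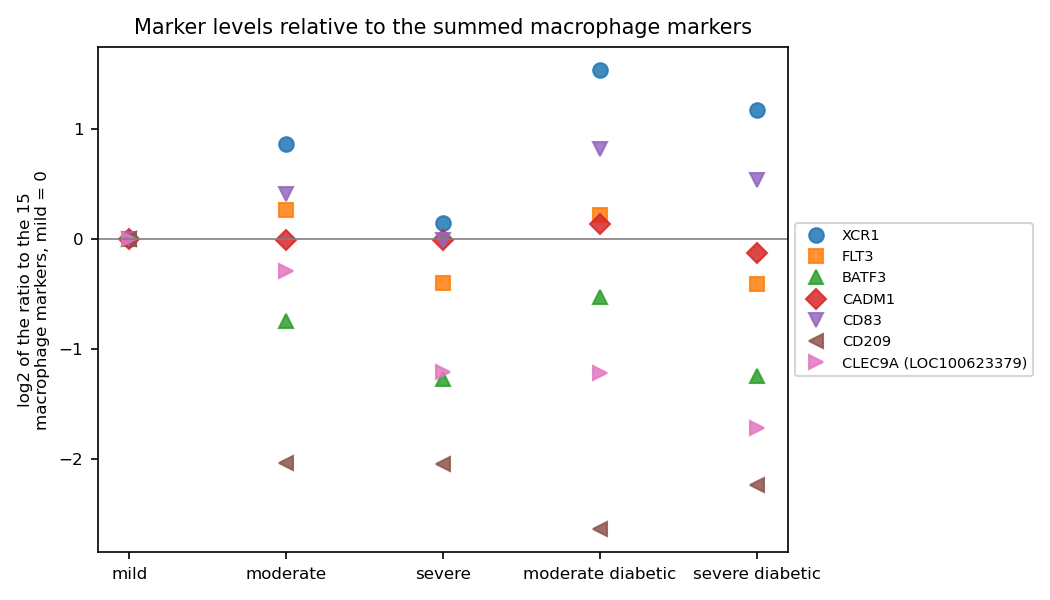
Ratio of each marker's mean to the summed means of 15 macrophage markers, as log2 relative to mild segments (vertical axis), in the 5 groups, with no error drawn. CADM1 lies at 0.917 to 1.10 times its mild ratio, XCR1 is above 1 in the 4 other groups, and CLEC9A, BATF3 and CD209 are below it.

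CD209 may also be read beside other C-type lectins. Of 10 matched lectin receptors 2 were higher in moderate over mild segments and 0 lower: CLEC5A, a lectin of monocytes and neutrophils, at 3.46 ± 0.50 (adjusted p = 2.33e-09) and CLEC7A, the glucan receptor dectin-1, at 2.10 ± 0.36 (adjusted p = 8.91e-07), from the authors' deposited table. An adjusted p was given for 8 of the 10 lectins in moderate and for 9 in severe over mild segments. In severe over mild segments 3 of the 10 lectins were higher, CLEC5A, CLEC7A and LY75, read from the numbered copy LY75_1, and 1 was lower. The lower one was the mannose receptor MRC1, at -1.07 ± 0.37 (adjusted p = 0.0342), from the authors' deposited table. It was also the 1 macrophage marker of 15 that was lower there, against 8 that were higher. MRC1 averaged 2182 normalized counts in mild segments and 1040.1 to 1462 in the 4 other groups, the same side as CD209. Lymphatic endothelial markers were also highest in mild segments in sum, 2759 normalized counts against 1280.3 to 1498 elsewhere, with 2 of 7 lower in moderate and 4 lower in severe over mild segments. Over all genes tested, 3.56% were higher and 1.08% lower in moderate over mild segments, and 7.19% and 4.80% in severe over mild segments. Whether lymphatic vessels or macrophages have a part in the CD209 values was not tested.

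By the shape of their means over the 5 groups, the genes nearest to each marker were found among named genes whose mean reached 10, as the Euclidean distance between centred log2(mean + 1) values. Nearest to XCR1 were MOCOS (distance 0.16), TNFSF9 (0.20) and TLL2 (0.22), and 0.225% of the genes searched lay within 0.5. Nearest to CD83 were PLAUR (0.05), the urokinase receptor, NDRG1 (0.11) and PTPRE (0.12), with 2.64% within 0.5. IRF5 (0.07), FAT2_2 (0.09) and SLC36A1 (0.09) were nearest to CADM1, with 7.69% within 0.5. BST1, O3FAR1 (both 0.22) and MTFP1 (0.32) were nearest to CD209, with 0.381% within 0.5. For CLEC9A, whose means varied little, 13.1% of genes lay within 0.5, led by SNX5 (0.07), so its shape singles out few. With 5 points per gene these distances describe shapes of means only.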

How the data were processed

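RNA of coronary segments had been extracted with Trizol, poly-A selected and primed at random, per the labels' protocols. The authors used DESeq2 on the build Sscrofa11.1, per the submitters' processing notes; its version, the aligner and the counter are not stated. The deposited signal is a mean normalized count per group, per the file headers. The authors deposited a log2 fold change with its standard error, a test score (the fold change over its error, with the sign turned) in 3 tables, and a p-value and adjusted p-value. Directions follow the fold change, first-named group over second, checked against the means. In 3 of the deposited tables the log2 fold change column also holds error marks in place of numbers, for genes at 0 in every group; these were left out. Of 35252 lines, 24 held dates in place of names and were left out.

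The authors' DESeq2 tests were used as deposited, since no values per library were at hand. Standard errors of the 6 tables were solved for 1 variance per group, which fitted them to a relative 5.05e-12, as 1 joint fit of all groups would give. From these the 4 other pairs of groups and the difference of the diabetes contrasts were tested (two-sided Wald test, Benjamini-Hochberg over the 17493 genes whose mean reached 10). The calculation was first run on simulated counts of independent libraries with known spread. That run cannot check the tests where segments share an animal. Whole reads per library could not be solved: for LAMP3 in mild segments 37 combinations give the mean. Of 201 genes on 18 lists, 164 matched by name, 10 by identifier, 5 by numbered copy and 22 were not matched. From each list the genes with the smallest adjusted p were named, partners of a marker always, and 3 nearest genes by shape; CCR1 was named after its values were seen, and not every gene of the rule is printed. The markers and lists were chosen with earlier results of these data known. Computations used Python 3.11.15, numpy 2.4.6, pandas 2.3.3 and scipy 1.17.1. Coordinates are 1-based, from RefSeq's table.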

Additional observations from a re-analysis of the deposited data

How the results depend on the processing

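Counts of markers past the threshold moved by less than or exactly 1.5 times under every alternative run: adjustment over every gene with a p, adjustment over genes whose mean reached 10 (the 6 deposited comparisons only), recentring on the median gene, which shifted log2 fold changes by at most 0.04, and counting LOC100623379 as CLEC9A, an alternative chosen after seeing the data. Adjusted over every gene with a p, CADM1 lost its call in moderate over mild segments (adjusted p = 0.0718 by DESeq2's p) and CD83 its call in severe diabetic over moderate segments (adjusted p = 0.0542 by the Wald test); that adjustment takes in more genes with low means. Recentring turned CD83 in severe over moderate segments from -0.01 to 0.0062, both far from the threshold. Folds from the deposited means with a pseudocount of 1 kept the direction of DESeq2's in all 48 cases. No paired analysis was possible because the tables hold no values per library, and for the same reason no library could be left out, severe non-diabetic replicate 5 included. Depth limits rows with few reads, such as LAMP3 and XCL1.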

Other observations

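Plasmacytoid dendritic cells make interferon. Of 10 matched genes, 6 had an adjusted p in moderate over mild segments, and 8 in severe over mild segments and with diabetes at either grade. In moderate over mild segments 0 were past the threshold by DESeq2, with RUNX2 alone at an unadjusted p under 0.05 (0.74 ± 0.35, unadjusted p = 0.0318) in the authors' deposited table. In severe over mild segments RUNX2 was higher (1.05 ± 0.33, adjusted p = 0.0166) in the authors' deposited table, the 1 call of the 10, and 3 had an unadjusted p under 0.05. Of all genes tested, 7.19% were higher there. With diabetes in moderate segments 2 were higher, where 8.20% of all genes tested were: RUNX2 (1.02 ± 0.30, adjusted p = 0.00912) and NRP1 (0.45 ± 0.15, adjusted p = 0.0251), in the authors' deposited table, and both genes are also expressed by other cells of the vessel wall. In severe segments 0 were past the threshold with diabetes by DESeq2, and 0 had an unadjusted p under 0.05. SPIB stood between 4.72 and 7.13 normalized counts in every group.

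Of 7 matched genes of the cDC2 branch, 1 was higher in moderate over mild segments, 1 in severe over mild segments, 2 with diabetes in moderate and 1 in severe segments, and 0 were lower, where 3.56%, 7.19%, 8.20% and 5.75% of all genes tested were higher. Only 4 of the 7 had an adjusted p in moderate over mild segments, and 5 in each of the other comparisons named. CLEC10A was listed at 0 in all 5 groups and CD1A in mild and moderate segments. SIRPA, which macrophages also carry, read from the numbered copy SIRPA_2, was higher in moderate over mild segments (1.04 ± 0.16, adjusted p = 2.43e-08), in severe over mild segments (1.35 ± 0.15, adjusted p = 1.27e-16) and with diabetes in moderate segments (0.70 ± 0.13, adjusted p = 1.06e-05) in the authors' deposited tables. The rarer copy SIRPA_1 averaged 9.17, 16.7 and 15.4 normalized counts without diabetes and 15.4 and 17.1 with diabetes. KLF4, a transcription factor that many cells of the vessel wall also use, was higher with diabetes in moderate (1.05 ± 0.24, adjusted p = 0.000394) and severe segments (0.78 ± 0.25, adjusted p = 0.0276) in the authors' deposited tables. FCER1A, shared by cDC2 and mast cells, averaged 10.04 to 14.9 normalized counts over the groups.

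IDO1, a tryptophan-degrading enzyme that mature dendritic cells can express, had means of 4.05, 8.90 and 3.87 normalized counts without diabetes and 74.0 and 31.4 with diabetes. It was named after its values were seen. Its log2 fold change with diabetes was 3.06 ± 1.12 in moderate segments (adjusted p = 0.0409) and 3.01 ± 1.18 in severe segments (adjusted p = 0.0818) in the authors' deposited tables.

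Markers of other cells were counted in the same way in the authors' deposited tables. Of 7 matched natural killer cell markers, 1 was higher in moderate and 2 in severe over mild segments, and 3 with diabetes in moderate and 0 in severe segments, with 0 lower. Only 4 of these 7 had an adjusted p in moderate over mild segments, and 6 in each of the other comparisons named. Of 10 endothelial markers 1 was lower in moderate over mild segments, 1 was higher and 1 lower in severe over mild segments, and 0 were past the threshold with diabetes at either grade by DESeq2, with 0 in moderate and 1 in severe segments at an unadjusted p under 0.05. None of 5 mast cell markers was past the threshold by DESeq2 in any of the 6 comparisons, with 2 at an unadjusted p under 0.05 in moderate over mild segments, 1 with diabetes in moderate segments and 0 in the others. Of 8 B cell markers 1 was higher in severe over mild segments, where 4 had an adjusted p. With diabetes in severe segments 5 of the 8 had an adjusted p and 1 was lower. That was BLK, at 9.35 normalized counts without and 1.80 with diabetes. The 8 means in sum were larger there with diabetes, 839.7 normalized counts against 370.3. CR2 made up most of both sums, at 794 and 341. It stood at 1.22 ± 0.52 (adjusted p = 0.118) and FCRLA at 1.27 ± 0.68 (adjusted p = 0.230), neither past the threshold in the authors' deposited table. Among 9 matched chemoattractants and receptors of dendritic cells, 4 were higher with diabetes in moderate segments and 1 in severe segments, and 0 lower. At either grade 7 of the 9 had an adjusted p. Over all genes tested, 3.56% were higher and 1.08% lower in moderate over mild segments, and 7.19% and 4.80% in severe over mild segments. With diabetes 8.20% were higher and 8.46% lower in moderate segments, and 5.75% and 4.92% in severe segments.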
